A study of Mus musculus with 4 samples.

Results

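The genes described here are 40 genes of the unfolded protein response and of protein folding in the endoplasmic reticulum (ER), out of 13792 genes listed in each of 2 RNA libraries of mouse B cells. They were chosen by name for their known function, at a time when earlier results of these data were known. All 40 were listed in both libraries and all 40 reached a value of at least 1, the minimum used to keep a gene, which 12283 genes met. The cells were naive B cells of the inbred C57BL/6 strain, infected with a retrovirus and cultured with antibodies to IgM and to CD40, which mimic antigen and T cell help. One library came from cells given the RVKM-Ascl2 virus, which carries the transcription factor gene Ascl2, and its control came from cells given RVKM-Empty, the vector without that gene. There was 1 library per group, so no value has a replicate error, no p-value was computed, and every difference below is a difference between these libraries. The 2 chromatin samples of the series, taken from germinal centre B cells, were not analysed here.

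Secretory proteins fold inside the ER, where chaperones hold them, lectins read their sugar chains and isomerases form their disulfide bonds, while ER-associated degradation (ERAD) sends failed chains to the proteasome. When unfolded proteins accumulate, the membrane sensors IRE1, PERK and ATF6 start the unfolded protein response. IRE1 splices the RNA of Xbp1, ATF6 is cleaved into a transcription factor, and PERK slows translation while favouring that of ATF4. In B cells this programme is best known from the change into antibody-secreting plasma cells, for which XBP1 is needed.

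Ascl2 itself had a value of 29.4 in the Ascl2 library and 0.0809 in the empty-vector library, which is the direction the labels give. The deposited values are abundances whose unit is not stated, and they were taken here as scaled for depth. Whether they are scaled for gene length is not stated either, so levels are compared within a gene and not between genes. For each gene the log2 ratio is that of the Ascl2 value plus 1 to the empty-vector value plus 1. Fewer expressing cells and less RNA per cell cannot be told apart in such bulk libraries.

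Most of the 40 genes were slightly higher in the Ascl2 library, among them 16 of 18 folding genes and 4 of 7 genes downstream of PERK and ATF4, or 5 of those 7 under each of the 3 rescalings and with the span trend removed. A log2 ratio above 0 was found for 30 of 40 genes, where 48.4% of all kept genes, and 46.3% of those with a value of at least 5, had one. The median log2 ratio of the 40 genes was 0.15, against −0.01 over all kept genes. No member reached 2-fold in either direction, a limit passed upward by 1.53% and downward by 0.716% of kept genes. At 1.5-fold, a log2 ratio of 0.58, 5 of 40 members were higher, against 5.01% of kept genes and 4.12% of those with a value of at least 5. No member was lower by 1.5-fold, against 4.31% of kept genes. When the libraries were scaled to equal sums outside the immunoglobulin genes and Pcdh15, 6 members were higher and none lower by 1.5-fold, while 801 kept genes were higher and 365 lower, against 615 and 530 with the values as deposited. The share of the summed abundance taken by the 40 genes was 0.567% in the Ascl2 library and 0.517% in the empty-vector library.

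**Figure D1:**
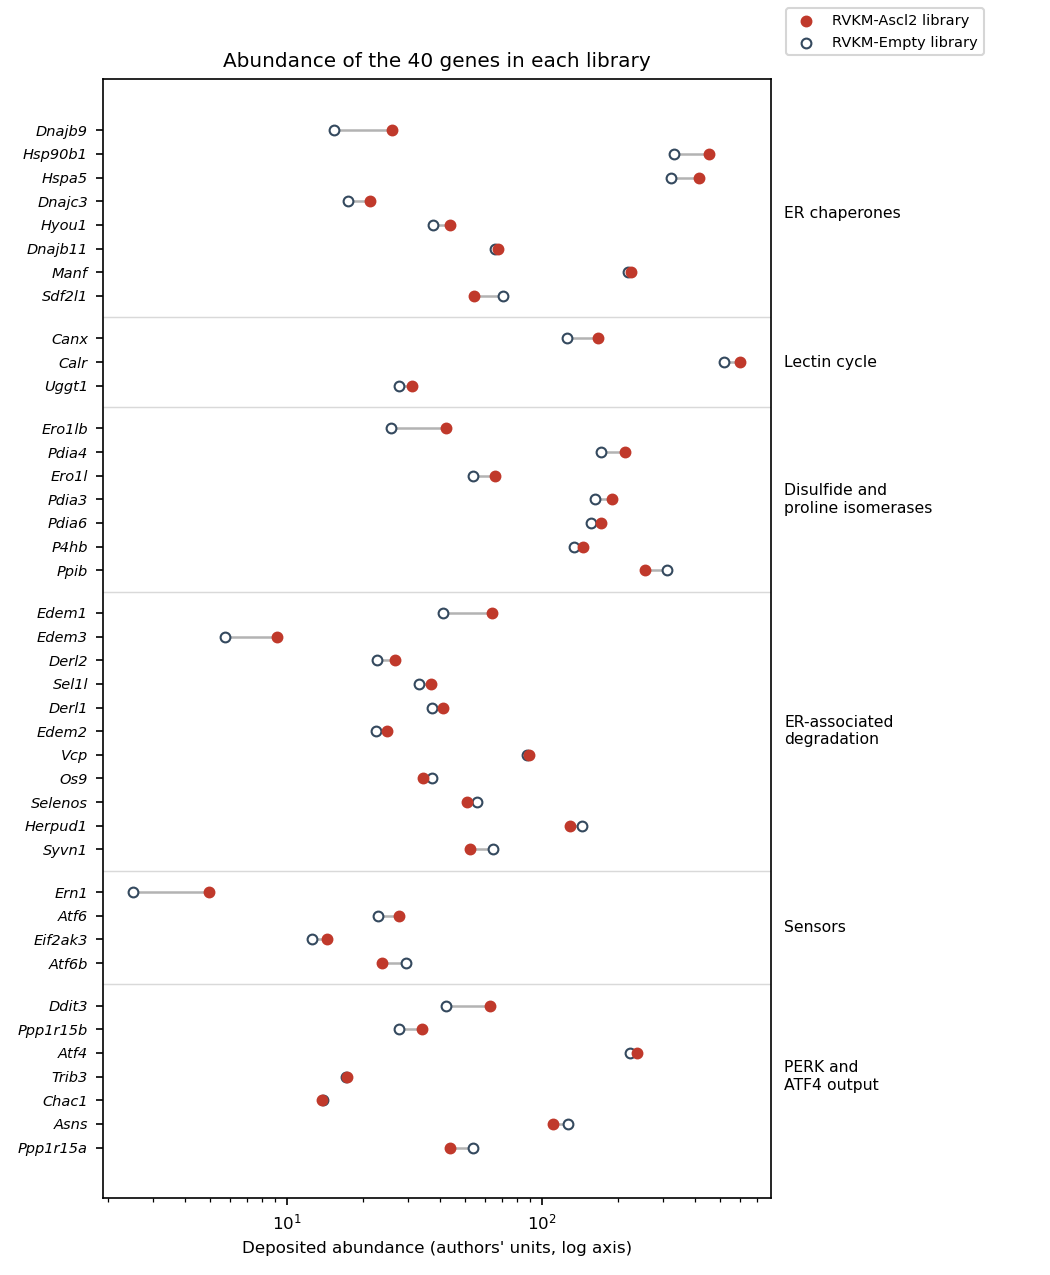
Abundance of the 40 genes in the RVKM-Ascl2 library (filled points) and the RVKM-Empty library (open points), on a log axis in the authors' units, grouped by role, with 1 library each and so no error bars. The filled point lies to the right of the open one for 30 of the 40 genes.

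The 5 genes past 1.5-fold came from the ER chaperones, the disulfide and proline isomerases, ERAD and the sensors. They were the sensor gene Ern1, the co-chaperone gene Dnajb9, the oxidase gene Ero1lb and the ERAD mannosidase-like genes Edem1 and Edem3, at 1.71, 1.64, 1.62, 1.55 and 1.51 times the empty-vector level with 1 added to each value. Ddit3 lay just outside, at 1.48 times, and Edem3 just inside. By the size of the log2 ratio among 12283 kept genes, counted from the highest, Ern1 was at place 337, Dnajb9 at 400, Ero1lb at 428, Edem1 at 532 and Edem3 at 596. On GRCm38, the assembly called mm10, Ern1 (ENSMUSG00000020715) lies on chromosome 11 from 106397620 to 106487796, and Dnajb9 (ENSMUSG00000014905) lies on chromosome 12 from 44205897 to 44210068. Ero1lb (ENSMUSG00000057069) lies on chromosome 13 from 12565818 to 12609533, Edem1 (ENSMUSG00000030104) lies on chromosome 6 from 108824045 to 108859356, and Edem3 (ENSMUSG00000043019) lies on chromosome 1 from 151755344 to 151822328.

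Promoters of several of the 40 genes hold elements known to answer ER stress. RefSeq promoters (build GRCm38.p6, from 250 bases before to 50 after a transcription start) were found for 35 of the 40 genes, and not for Hyou1, Manf, Derl1, Atf6 and Ppp1r15b. The ER stress element, which NF-Y and ATF6 or XBP1 bind, was searched as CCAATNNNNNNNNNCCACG on both strands. Counted by gene, it was matched for 8 of 35 members, or 22.9%, and for 37 of all 27025 genes with a promoter. Counted by promoter, it was matched in 39 of all 32851 promoters of this length, or 0.119%. The element was first described in promoters of ER chaperone genes such as Hspa5, so its presence among them is background and not a result of these libraries. The 8 promoters are shown because they hold the letters shared by the genes whose values follow. Each is written 5′ to 3′ on the strand of its gene, whole for Hspa5, Hsp90b1 and Ero1lb and with 20 bases on either side of the match for the rest, and capitals mark the match. A match to the other strand begins with CGTGG and ends with ATTGG.
Hspa5 (chr2:34771840-34772139, plus strand): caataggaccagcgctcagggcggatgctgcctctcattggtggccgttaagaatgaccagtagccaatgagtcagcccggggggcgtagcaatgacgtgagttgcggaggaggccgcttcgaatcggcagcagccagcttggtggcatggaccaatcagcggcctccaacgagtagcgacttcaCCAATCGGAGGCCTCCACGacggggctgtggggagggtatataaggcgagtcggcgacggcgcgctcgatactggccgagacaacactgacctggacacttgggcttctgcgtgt
Hsp90b1 (chr10:86705395-86705694, minus strand): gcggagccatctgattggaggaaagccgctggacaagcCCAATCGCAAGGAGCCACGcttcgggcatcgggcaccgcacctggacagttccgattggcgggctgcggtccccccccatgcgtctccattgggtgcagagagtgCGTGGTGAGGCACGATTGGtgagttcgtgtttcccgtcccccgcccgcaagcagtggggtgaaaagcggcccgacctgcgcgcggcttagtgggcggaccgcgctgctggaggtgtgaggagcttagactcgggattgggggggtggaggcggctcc
Ero1lb (chr13:12565633-12565932, plus strand): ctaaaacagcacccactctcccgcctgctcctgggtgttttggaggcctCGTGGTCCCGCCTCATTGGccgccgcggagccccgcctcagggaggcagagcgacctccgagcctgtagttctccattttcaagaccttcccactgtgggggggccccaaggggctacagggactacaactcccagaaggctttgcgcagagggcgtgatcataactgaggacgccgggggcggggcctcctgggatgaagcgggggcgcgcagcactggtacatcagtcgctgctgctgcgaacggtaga
Canx (chr11:50325780-50325838, minus strand): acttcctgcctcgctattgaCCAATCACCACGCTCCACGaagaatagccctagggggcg
Calr (chr8:84847055-84847113, minus strand): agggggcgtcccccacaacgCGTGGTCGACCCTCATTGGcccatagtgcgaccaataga
Dnajc3 (chr14:118937807-118937865, plus strand): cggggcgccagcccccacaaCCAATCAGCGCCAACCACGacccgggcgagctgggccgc
Pdia6 (chr12:17266471-17266529, plus strand): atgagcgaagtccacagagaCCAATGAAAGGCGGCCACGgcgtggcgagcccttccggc
Syvn1 (chr19:6046512-6046570, plus strand): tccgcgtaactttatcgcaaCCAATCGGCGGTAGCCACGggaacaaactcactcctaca

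Hsp90b1 held 2 copies, one on each strand, at 212 and 107 bases before the start. In Hspa5 the copy began 65 bases before the start, in Syvn1 44, and in Ero1lb 201. For Ero1lb the start used is that of the promoter entry, which lies inside the gene span given above. The log2 ratios of the 8 genes were 0.69 for Ero1lb, 0.46 for Hsp90b1, 0.39 for Canx, 0.36 for Hspa5, 0.27 for Dnajc3, 0.22 for Calr, 0.12 for Pdia6 and −0.30 for Syvn1. Thus 7 of 8 were above 0, with a median of 0.32, while 18 of the 27 member genes whose promoter window lacked a match were above 0, with a median of 0.11. Past 1.5-fold were 1 of the 8 and 4 of the 27. Of the 8, all but Syvn1 are folding genes, and 16 of all 18 folding genes were above 0, with a median of 0.22. The 27 hold most of the ERAD, sensor and PERK and ATF4 genes, so the sets differ in branch as well as in the element. These counts are a description and were not tested.

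Other elements were rare among the members. The short form of the ER stress element, ATTGGNCCACG, was matched in Dnajb11 and Herpud1 and in 0.0365% of all promoters. The core of the element that XBP1 binds, TGACGTGG, was matched in Vcp and in 0.676% of all promoters. The core of the composite element bound by ATF4, TGATGCAA, was matched in Chac1 and Herpud1 and in 0.895% of all promoters. These 4 promoters are shown because they hold the elements of the other branches, with capitals marking each match and TTGCATCA being the ATF4 core on the other strand.
Dnajb11 (chr16:22857832-22857882, plus strand): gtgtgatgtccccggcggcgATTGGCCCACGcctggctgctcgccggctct
Herpud1 (chr8:94386297-94386407, plus strand): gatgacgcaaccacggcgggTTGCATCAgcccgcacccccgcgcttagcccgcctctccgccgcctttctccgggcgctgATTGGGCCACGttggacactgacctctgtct
Chac1 (chr2:119351029-119351076, plus strand): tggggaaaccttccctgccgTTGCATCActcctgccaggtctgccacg
Vcp (chr4:43000594-43000641, minus strand): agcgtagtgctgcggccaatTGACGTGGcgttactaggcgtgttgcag

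The E-box CAGCTG is a sequence that basic helix-loop-helix factors such as Ascl2 bind. Counted by gene, it was matched for 5 of 35 members (14.3%) and for 4944 of all 27025 genes with a promoter. Counted by promoter, it was matched in 16.3% of all promoters. None of those 5 genes, which were Calr, Chac1, Pdia3, Syvn1 and Uggt1, was past 1.5-fold. No match overlapped another within the member promoters.

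**Figure D2:**
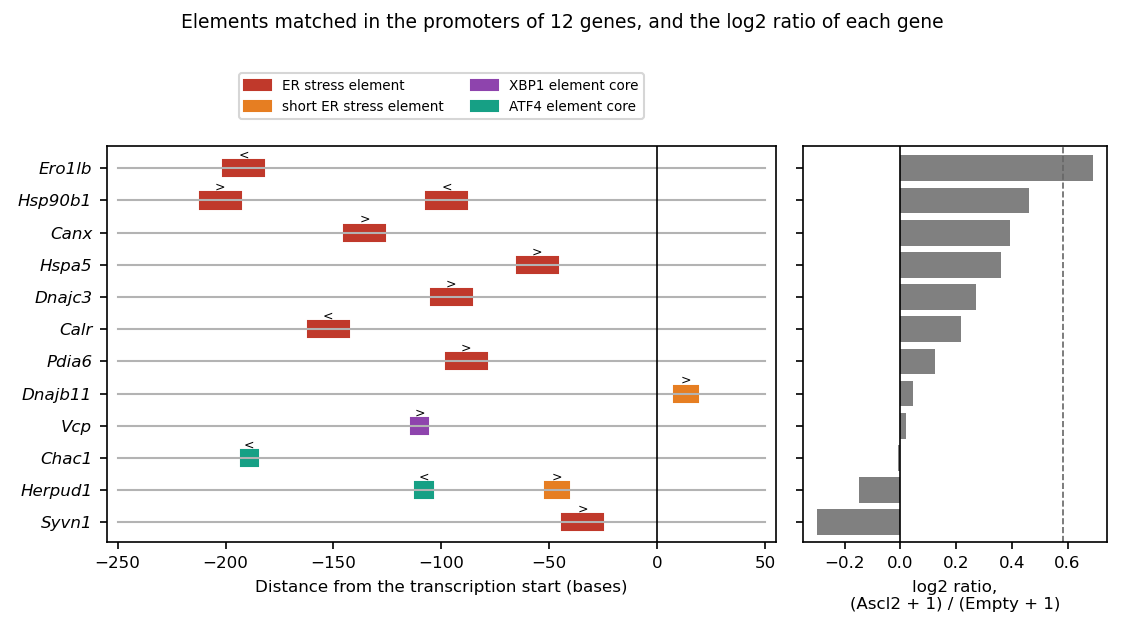
Left, matches to 4 elements in promoters of 12 member genes, by distance in bases from the transcription start, with > and < giving the strand of the match. Right, the log2 ratio of the Ascl2 library to the empty-vector library for each gene, with the dashed line at 1.5-fold. The 8 genes with an ER stress element run from 0.69 for Ero1lb to −0.30 for Syvn1.

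Among the ER chaperones, 7 of 8 genes were higher in the Ascl2 library, with a median log2 ratio of 0.24. Hspa5, which encodes BiP, the ER chaperone that also holds the sensors inactive, had a value of 414 in the Ascl2 library and 322 in the empty-vector library (log2 ratio 0.36). Hsp90b1, which encodes GRP94, the ER member of the HSP90 family, had 455 in the Ascl2 library and 329.8 in the empty-vector library (0.46). Both abundant chaperones were thus higher by less than 1.5-fold. Dnajb9, which encodes ERdj4, a J protein that recruits BiP and is a target of XBP1, had 25.8 in the Ascl2 library and 15.3 in the empty-vector library (0.72). Other partners of BiP differed less. Dnajc3, which encodes the co-chaperone p58IPK, had 21.2 and Hyou1, which encodes a nucleotide exchange factor for BiP, had 43.9 in the Ascl2 library, against 17.4 and 37.6 in the empty-vector library. Dnajb11, another J protein gene, had 67.5 in the Ascl2 library and 65.4 in the empty-vector library, and lay near equality. So did Manf, which encodes a secreted ER stress protein, at 224 in the Ascl2 library and 218 in the empty-vector library. Sdf2l1, whose product works in a complex with Dnajb11, was the one chaperone gene below 0, with 54.3 in the Ascl2 library and 70.7 in the empty-vector library (−0.38), the lowest ratio of the 40. With the span trend removed Sdf2l1, a gene of 2.25 kb, was at −0.16, and Atf6b at −0.19 was then the lowest.

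All 3 genes of the lectin cycle, which folds glycoproteins, were higher. Canx, the membrane lectin calnexin, had 166 in the Ascl2 library and 126 in the empty-vector library (log2 ratio 0.39). Its soluble relative calreticulin, from Calr, had 601 in the Ascl2 library and 517 in the empty-vector library (0.22). Uggt1, the glucosyltransferase that marks misfolded glycoproteins for another round, had 31.0 in the Ascl2 library and 27.5 in the empty-vector library (0.16). None of the 3 reached 1.5-fold.

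Of 7 genes for disulfide and proline isomerases, 6 were higher, with a median log2 ratio of 0.22. The oxidases that recharge the protein disulfide isomerases differed in size. Ero1lb, known from tissues that secrete much protein, had 42.0 in the Ascl2 library and 25.6 in the empty-vector library (0.69), and Ero1l had 65.7 in the Ascl2 library and 53.8 in the empty-vector library (0.28). The difference between the log2 ratios of Ero1lb and Ero1l was 0.41. Among the isomerases, Pdia4 had 212 in the Ascl2 library and 171 in the empty-vector library (0.31), and Pdia3, which works with calnexin and calreticulin, had 189 in the Ascl2 library and 162 in the empty-vector library (0.22). Pdia6, which can restrain IRE1, had 171 in the Ascl2 library and 157 in the empty-vector library. P4hb, the archetypal disulfide isomerase, had 145 in the Ascl2 library and 134 in the empty-vector library. These isomerases were each a little higher, and none reached 1.5-fold. Ppib, the ER cyclophilin that isomerises prolines, went the other way, with 254 in the Ascl2 library and 309 in the empty-vector library (−0.28).

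The ERAD genes were mixed, with 7 of 11 above 0 and a median log2 ratio of 0.13. The EDEM family trims mannose from glycoproteins to be degraded. Edem1 had 64.2 in the Ascl2 library and 41.1 in the empty-vector library (0.63). Edem3 had 9.19 in the Ascl2 library and 5.75 in the empty-vector library (0.59), and Edem2 had 24.7 in the Ascl2 library and 22.5 in the empty-vector library (0.13). Within this family Edem1 and Edem3 were past 1.5-fold and Edem2 was not. The ubiquitin ligase that sits at the centre of ERAD had its parts on opposite sides. Syvn1, which encodes the ligase HRD1, had 52.3 in the Ascl2 library and 64.6 in the empty-vector library (−0.30). Its partner Sel1l had 36.8 in the Ascl2 library and 33.2 in the empty-vector library (0.14). The derlin genes of the exit channel lay near Sel1l, with Derl1 at 41.1 in the Ascl2 library and 37.1 in the empty-vector library (0.14). Derl2 had 26.6 in the Ascl2 library and 22.6 in the empty-vector library (0.22). Herpud1, a stress-induced scaffold of the ligase, had 129 in the Ascl2 library and 144 in the empty-vector library (−0.15). The lectin gene Os9 had 34.2 in the Ascl2 library and 37.1 in the empty-vector library (−0.11), and Selenos, a selenoprotein that recruits the extracting ATPase, had 51.1 in the Ascl2 library and 55.9 in the empty-vector library (−0.13). That ATPase, Vcp, had 89.1 in the Ascl2 library and 87.8 in the empty-vector library (0.02). Apart from Edem1 and Edem3, the ERAD genes all lay within 1.5-fold.

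**Figure D3:**
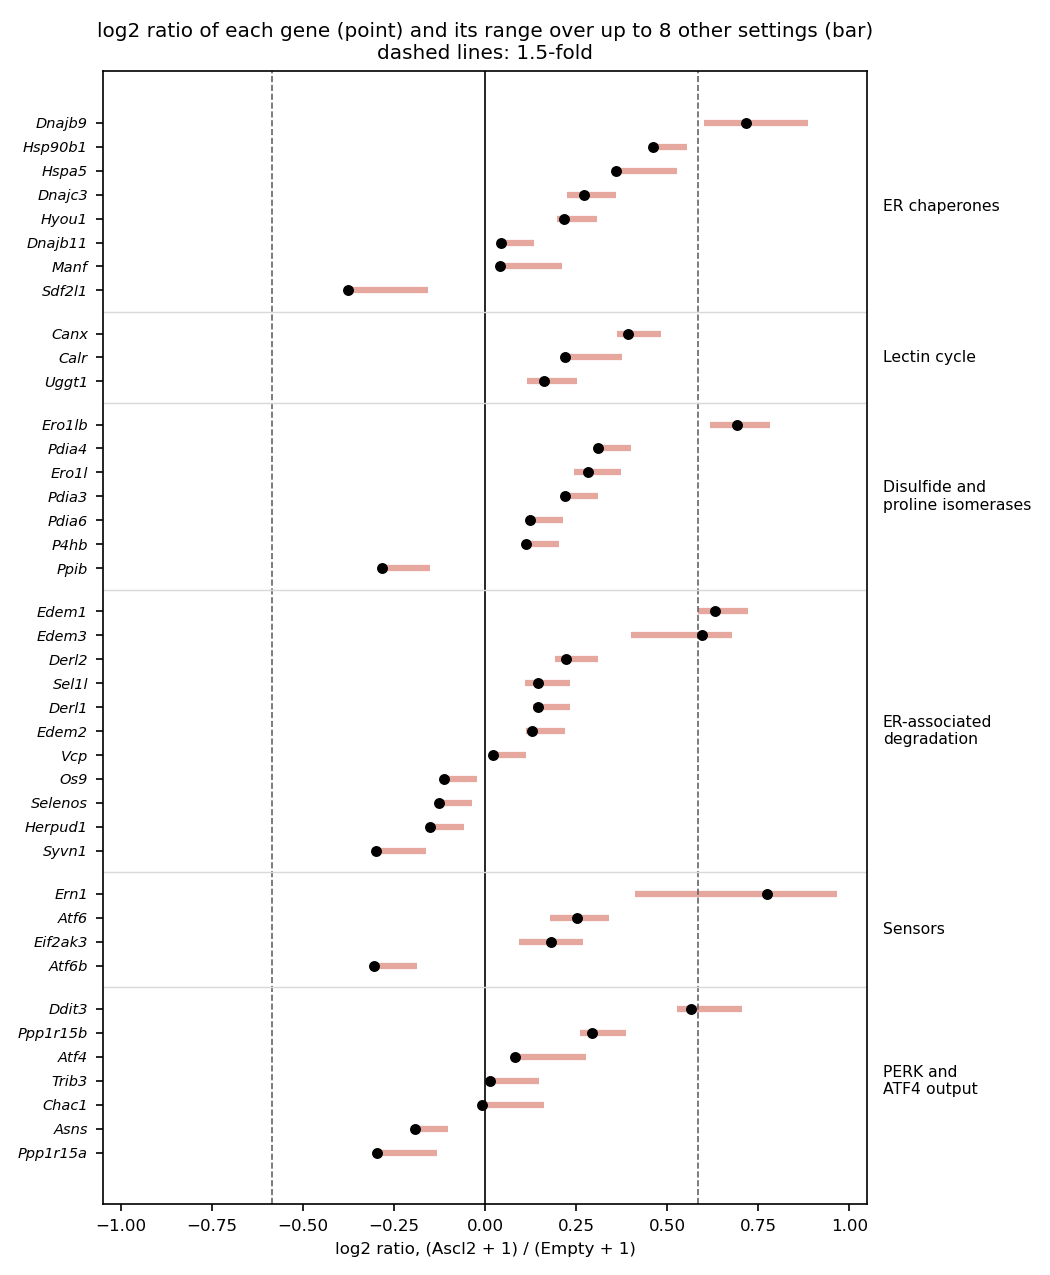
The log2 ratio of the Ascl2 library to the empty-vector library for each of the 40 genes, grouped by role (points), with the range over up to 8 other settings of pseudocount, filter, scaling and span correction (bars) and dashed lines at 1.5-fold. The bars of Dnajb9, Ero1lb and Edem1 stay past 1.5-fold, and those of Ern1, Edem3 and Ddit3 cross it.

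Of the 4 sensor genes, 3 were higher. Ern1, which encodes IRE1, had 4.98 in the Ascl2 library and 2.50 in the empty-vector library (log2 ratio 0.77), the highest ratio of the 40. It was also the member with the lowest values, and its log2 ratio was 0.41 with a pseudocount of 5 and 0.97 with one of 0.1. Eif2ak3, which encodes PERK, had 14.4 in the Ascl2 library and 12.6 in the empty-vector library (0.18). The ATF6 pair was on opposite sides. Atf6 had 27.5 in the Ascl2 library and 22.9 in the empty-vector library (0.25), and its relative Atf6b had 23.6 in the Ascl2 library and 29.3 in the empty-vector library (−0.30). Xbp1, the target that IRE1 splices, had 272 in the Ascl2 library and 238 in the empty-vector library (0.20). Gene-level values do not separate its spliced from its unspliced form.

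The genes downstream of PERK and ATF4 were on both sides of 0, with 4 of 7 above 0 and a median log2 ratio of 0.01. This median depended on the processing. It was 0.10 with equal sums outside the immunoglobulin genes and Pcdh15, and 0.16 with the trend of the ratio with genomic span removed, each with 5 of 7 above 0. With the span trend removed it was thus above the medians of the ERAD genes, 0.11, and of the sensors, 0.14. Atf4 itself, whose protein is controlled mostly at translation, had 236 in the Ascl2 library and 222 in the empty-vector library (0.08). Ddit3, which encodes CHOP, the factor linked to death under lasting stress, had 62.7 in the Ascl2 library and 42.0 in the empty-vector library (0.57). The genes known to be induced by ATF4 together with or through CHOP had lower ratios than Ddit3. Trib3, a pseudokinase gene, had 17.2 in the Ascl2 library and 17.1 in the empty-vector library (0.01). Chac1, which breaks down glutathione, had 13.8 in the Ascl2 library and 13.9 in the empty-vector library (−0.01). Asns, the asparagine synthetase gene and a standard ATF4 target, had 111 in the Ascl2 library and 127 in the empty-vector library (−0.19). All 3 were close to equality or lower. The phosphatase subunits that reverse the PERK signal differed in sign. The stress-induced Ppp1r15a, which encodes GADD34, had 43.5 in the Ascl2 library and 53.7 in the empty-vector library (−0.30). The constitutive Ppp1r15b had 34.1 in the Ascl2 library and 27.6 in the empty-vector library (0.29).

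Genes of the same pathways outside the 40 lay near equality as groups. Of 28 other ER folding genes, 15 were above 0, 1 was at least 1.5-fold higher and none was lower by that much, and the median log2 ratio was 0.02. Their highest was Fkbp11, a prolyl isomerase gene of secretory cells, with 13.7 in the Ascl2 library and 6.89 in the empty-vector library (0.90). Their lowest was Fkbp2, another isomerase gene, with 57.7 in the Ascl2 library and 81.9 in the empty-vector library (−0.50). Of 27 other ERAD genes, 14 were above 0, with a median of 0.02. Derl3, the derlin of plasma cells, was alone past 1.5-fold, with 21.6 in the Ascl2 library and 11.9 in the empty-vector library (0.81). Tmub1 was the lowest of them, with 6.75 in the Ascl2 library and 10.3 in the empty-vector library (−0.55). Of 20 other regulators of the response, 10 were above 0, with a median of −0.0013. Past 1.5-fold there were Creb3l2, a membrane-bound factor related to ATF6, higher at 4.39 in the Ascl2 library against 2.25 in the empty-vector library, and Bax and Bak1, death effectors that also bind IRE1, both lower. Bax had 83.9 in the Ascl2 library and 142 in the empty-vector library (−0.75), and Bak1 had 34.2 in the Ascl2 library and 52.0 in the empty-vector library (−0.59). Creb3l2 was named after its value was seen.

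The wider ATF4 programme did not differ as a group. Of 37 other ATF4 targets and genes of the eIF2 pathway, 17 were above 0, none was at least 1.5-fold higher and 1 was lower by that much, with a median log2 ratio of −0.01. That one was Cebpb, a transcription factor gene, with 7.27 in the Ascl2 library and 11.7 in the empty-vector library (−0.62). Sesn2, a stress-induced regulator of growth signalling, had 22.9 in the Ascl2 library and 32.8 in the empty-vector library (−0.50). Shmt2, an enzyme gene of serine metabolism, had 159 in the Ascl2 library and 213 in the empty-vector library (−0.42). At the other end of this list, the highest log2 ratios were those of Slc38a2 (0.29), Eif2ak2 (0.23) and Eprs (0.22).

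The closest neighbours of the folding genes are those that bring proteins into the ER and export them. The median log2 ratio was 0.15 for the 40 members and 0.14 for 48 such genes, of which 35 were above 0. Ost4 was the lowest of the 48, with 65.0 in the Ascl2 library and 96.4 in the empty-vector library (−0.56). Sec61g, a subunit of the translocon, was alone past 1.5-fold, with 19.8 in the Ascl2 library and 11.4 in the empty-vector library (0.74). Chaperones outside the ER went the other way. Of 30 cytosolic and mitochondrial chaperone genes, 11 were above 0 and the median was −0.15. Among them, Hspe1, the mitochondrial HSP10, had 440 in the Ascl2 library and 547 in the empty-vector library (−0.31), and Cct6a, a subunit of the cytosolic TRiC chaperonin, had 336 in the Ascl2 library and 244 in the empty-vector library (0.46). The differences between the lists have no test, since each library stands alone.

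**Figure D4:**
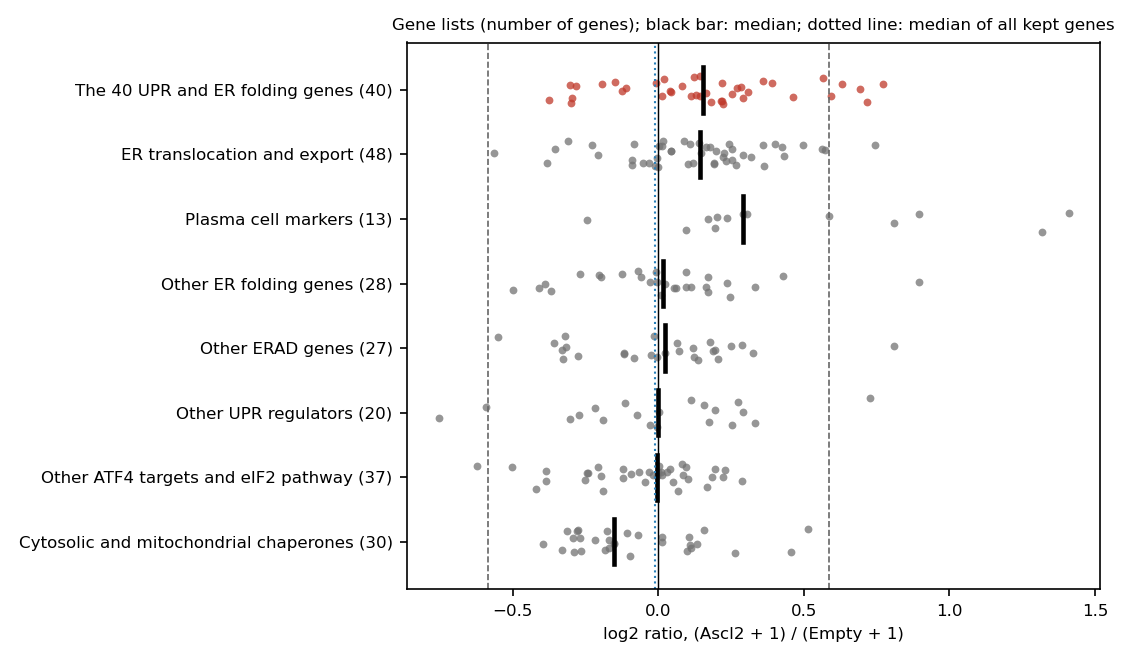
The log2 ratio of the Ascl2 library to the empty-vector library for each gene of 8 lists (points, spread vertically only to separate them), with black bars at the medians, a dotted line at the median of all kept genes and dashed lines at 1.5-fold. The medians of the 40 members and of the translocation and export genes lie at 0.15 and 0.14, and that of the cytosolic and mitochondrial chaperones at −0.15.

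The longer members had the higher ratios. Across the 40 genes, the genomic span and the log2 ratio had a Spearman rho of 0.43, and across 11705 kept genes with a known span the rho was 0.20, with all points from the same pair of libraries. The 20 members of shorter span, from 2.25 to 14.6 kb, had a median log2 ratio of 0.06 and 1 gene past 1.5-fold, Dnajb9. The 20 of longer span, from 17.4 to 164 kb, had a median of 0.20 and the other 4. The running median of all genes by span was between −0.22 and 0.09 at the members' spans. With that trend removed the median of the members was 0.18 and 31 of 40 were above 0. Ddit3 was then past 1.5-fold, at 0.71, and Edem3 was not, at 0.52. Hspa5, a short gene of 4.44 kb, was at 0.53 after removal.

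**Figure D5:**
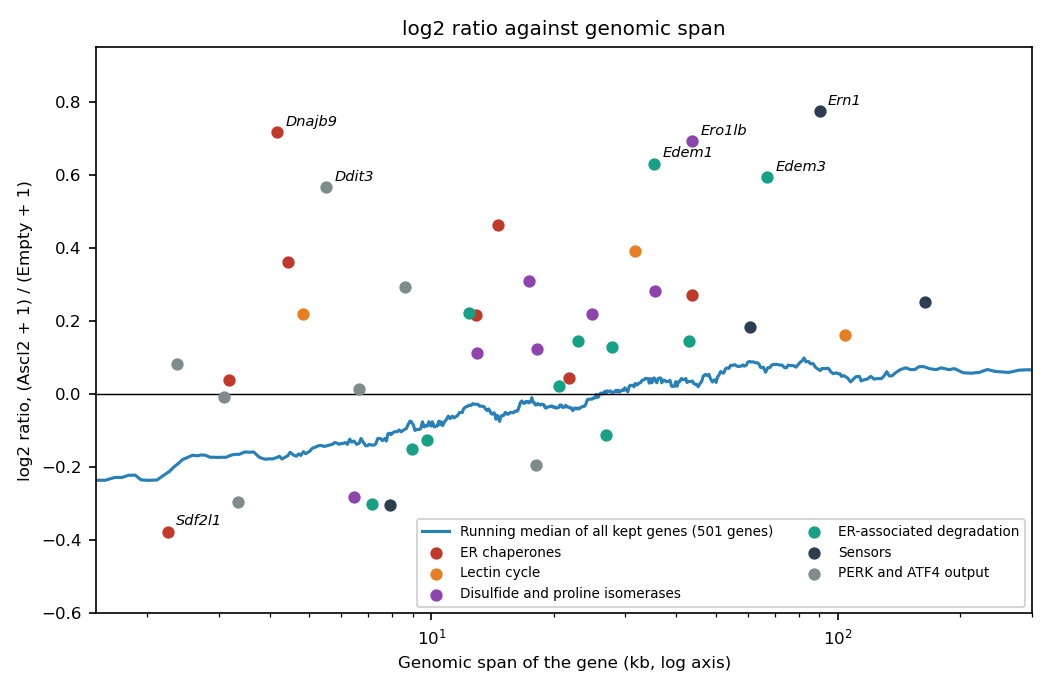
The log2 ratio of the Ascl2 library to the empty-vector library against genomic span in kb on a log axis, for the 40 genes by role (points), and the running median of all kept genes (line). Of the 40 points, 31 lie above the line, which lies below 0 at the shorter spans shown and above 0 at the longer ones.

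Other features of the libraries moved along with these genes. Of 14 plasma cell markers 13 were listed and 12 were higher in the Ascl2 library, with a median log2 ratio of 0.29 and summed values of 1763 in the Ascl2 library and 1399 in the empty-vector library. Of these, Fkbp11, Derl3, Creld2, Xbp1, Txndc5 and Mzb1 are also in the lists of other ER folding, ERAD and regulator genes above, so these lists are not separate. Jchain, the joining chain of secreted antibody, had 301.2 in the Ascl2 library and 113 in the empty-vector library. Prdm1, the gene of the repressor that starts plasma cell differentiation, had 9.23 in the Ascl2 library and 3.10 in the empty-vector library. The surface marker Sdc1 went the other way, with 2.37 in the Ascl2 library and 2.99 in the empty-vector library. Immunoglobulin genes took 9.52% of the summed abundance in the Ascl2 library and 5.50% in the empty-vector library. All 10 B cell markers were listed, with sums of 6700.2 in the Ascl2 library and 8499 in the empty-vector library, and a median of −0.05. Of 18 myeloid markers 12 were listed and 11 kept, of which 10 were above 0, with a median of 0.21 and sums of 349 in the Ascl2 library and 323 in the empty-vector library. The myeloid markers Itgam, Itgax, Mpo, S100a8, S100a9 and Cd300a were not listed, while Csf1r had 1.06 in the Ascl2 library and 0.780 in the empty-vector library. Vcan was the only kept myeloid marker past 2-fold, with 1.398 in the Ascl2 library and 0.0941 in the empty-vector library (1.13). Both of its values are low. Of 16 T and NK cell markers 6 were listed and 3 kept, with a median of −0.19, and Cd3e, Cd3d and Cd3g were not among them. Of 12 stromal markers 8 were listed and 3 kept, with a median of −0.19. Both medians are the value of Thy1, which is in both lists. The stromal marker Sparc, named after its value was seen, had 4.42 in the Ascl2 library and 2.19 in the empty-vector library (0.76). The part of these genes in the result was not tested.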

How the data were processed

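RNA of cultured mouse B cells, extracted with Trizol per the labels' protocols, was measured in 2 libraries, grouped by sample title. The authors deposited a signal for each gene. Its unit, scaling, quantifier and annotation are not stated in the labels or file headers, and it was taken as scaled for depth because the sums of the libraries, 763932 for Ascl2 and 750692 for the empty vector, are close. The submitters' processing notes name mm10, Trim Galore, Bowtie2, Picard and MACS2, without roles. No whole reads could be recovered, so absolute depth is not known. Low values (under 1.2, 1842 genes) showed a cluster of Ascl2 to empty-vector ratios from 0.57 to 0.58. It held 38 genes, where nearby intervals had a median of 9. Ratios in the doubled interval, from 1.14 to 1.16, were held by 62 genes. That interval is wider than the first, and no nearby intervals were counted for it, so it was not shown to be a cluster. A read may thus count for unequal amounts in the 2 libraries. Which of these ratios stands for equal read numbers is not known, so neither the size nor the direction of the inequality is known.

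The log2 ratio used a pseudocount of 1, which understates differences of low genes. Genes reaching 1 in a library were kept. With 1 library per group no test was possible. The members and lists were chosen with earlier results of these data known. The genes named are all 40 members, Ascl2, Xbp1 and, from each other list, some of its 3 highest and 3 lowest ratios among genes reaching 5. Any kept gene of those lists past 2-fold is also named. Exceptions are marked. Csf1r and Sdc1 were also named after their values were seen. Symbols with 2 identifiers were left out of lists. Spans and promoters are RefSeq's on GRCm38.p6, matched by symbol or unique synonym. The closing section gives the effect of other pseudocounts (0.1 and 5), other filters (none, 5), 3 rescalings, and removal of the span trend (running median, 501 genes). Only the ratio and the 1.5-fold call were tested on simulated data, at an assumed depth that need not match these libraries. The promoter, span and rescaling steps were not tested in that way. Python 3.11.15, pandas 2.3.3, numpy 2.4.6 and scipy 1.17.1 were used.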

Additional observations from a re-analysis of the deposited data

How the results depend on the processing

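The 40 members were compared under 8 other settings. With a pseudocount of 5 the number at least 1.5-fold higher was 3, against 5 in the report, since Ern1 and Edem3 were at 0.41 and 0.40 on the log2 scale. With a filter of 5, which drops Ern1, it was 4. With equal sums outside immunoglobulin genes and Pcdh15, a gene of very high value in the Ascl2 library, it was 6, with Ddit3 at 0.66. No member was 1.5-fold lower in any of the 8. The median of the members ranged from 0.14 to 0.24 and the number above 0 from 29 to 31. The equal sums put the median of all kept genes at 0.07. All 9 members below 0 other than Chac1, and all 30 above 0, kept their sign in every setting that gave them a value. Chac1 changed sign in 4 of 8, and its highest value was 0.16 with the span trend removed. Leaving out a library could not be done with 1 per group. No paired analysis was possible because each group has 1 library. Depth is unknown, so the counting error of low genes such as Ern1 cannot be given.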

Other observations

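The ER stress element was also matched in promoters of 8 kept genes outside the 40. Of these, 6 were higher in the Ascl2 library, and their median log2 ratio was 0.18, against −0.02 over 8935 kept genes with a promoter. Derl3 was at 0.81, the mannosyltransferase gene Alg12 at 0.42 with values of 11.7 in the Ascl2 library and 8.49 in the empty-vector library, and Creld2, a disulfide isomerase-like gene of ER stress, at 0.24 with 41.9 in the Ascl2 library and 35.4 in the empty-vector library. Xlr3b and Xlr3a, near-identical copies whose reads may be shared, were at 0.70 and −1.11. The short form of the element was matched in promoters of 6 other kept genes, of which 3 were above 0, with a median of −0.0006. Among other kept genes, 52 of 91 with the XBP1 element core were above 0 (median 0.05), as were 30 of 63 with the ATF4 core (−0.01) and 735 of 1512 with the E-box (−0.02). These genes were named after their values were seen, and no difference between the sets was tested.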
